A study of Rattus norvegicus with 12 samples.

Results

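The cholinergic genes described here are those for the synthesis, transport and breakdown of the transmitter acetylcholine and for its muscarinic and nicotinic receptors, measured by microarray in 2 brain structures of cocaine-taking rats, the nucleus accumbens and the anterior cingulate cortex (called cortex here). They were chosen by name: Chat, Slc5a7, Slc18a3, Ache, Chrm1, Chrm2, Chrm3, Chrna4, Chrna7 and Chrnb2, with every probe set (a group of short oligonucleotides read together as 1 signal) annotated to 1 of these 10 symbols. The array measured 9 of these genes, of 14217 genes with a probe set of their own. Of its 31042 probe sets that are not controls, 10 carried these symbols, 1 for each gene except 2 for Chrm3. No probe set carried the symbol Ache in the annotation used, so the acetylcholine-degrading enzyme was not analysed here.

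The rats were Wistar males, all of which took cocaine by self-administration into a vein on 4 days, in daily sessions of 2 h, at 0.3 mg/kg per injection, and they were killed 2 h after the last session. Some rats received vehicle and the others TsA, as the labels write it without a dose, commonly short for the histone deacetylase inhibitor trichostatin A. There were 4 groups of 3 arrays: cortex with vehicle, cortex with TsA, accumbens with vehicle and accumbens with TsA. Each array held RNA pooled from 2 rats, and there was no group without cocaine. The labels do not say if 1 rat gave both tissues.

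Acetylcholine is made in nerve endings from choline and acetyl-CoA by choline acetyltransferase, loaded into vesicles by the vesicular acetylcholine transporter, and, once released and split, recovered as choline by a high-affinity transporter. In the striatum, of which the accumbens is the ventral part, its main source is a sparse class of large local interneurons. The cortex is served mostly by axons whose cell bodies lie in the basal forebrain, so that the mRNA for these enzymes stays outside the cortical tissue, apart from a few local cells. Muscarinic receptors are coupled to G proteins and nicotinic receptors are ion channels of 5 subunits; both are made by the cells that receive the transmitter and also by cholinergic cells themselves.

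The promoters of the 3 genes that make and move acetylcholine are shown because these genes were all higher in the accumbens. Each stretch runs 5′ to 3′ on the gene's strand from 250 bases before to 50 after the annotated start, in RefSeq's GRCr8 assembly of the rat. Capitals mark TGACG, the core of the site of cyclic AMP-responsive factors, on either strand (CGTCA), and TATAAA, the TATA box. The Chat window lies at chr16:7723367-7723666, that of Slc18a3 at chr16:7722765-7723064 and that of Slc5a7 at chr9:7953460-7953759, all on the minus strand.
Chat: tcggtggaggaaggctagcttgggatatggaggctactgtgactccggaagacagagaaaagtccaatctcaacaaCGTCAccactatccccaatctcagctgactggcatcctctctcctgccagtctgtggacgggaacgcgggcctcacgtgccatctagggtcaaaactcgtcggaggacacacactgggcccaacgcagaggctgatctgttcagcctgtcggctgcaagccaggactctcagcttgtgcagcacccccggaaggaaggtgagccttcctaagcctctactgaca
Slc18a3: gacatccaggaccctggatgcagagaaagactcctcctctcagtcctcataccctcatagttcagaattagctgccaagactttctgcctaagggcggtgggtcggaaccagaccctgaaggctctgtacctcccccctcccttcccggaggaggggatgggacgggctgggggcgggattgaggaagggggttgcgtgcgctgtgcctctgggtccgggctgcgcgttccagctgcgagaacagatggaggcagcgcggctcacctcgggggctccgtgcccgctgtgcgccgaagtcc
Slc5a7: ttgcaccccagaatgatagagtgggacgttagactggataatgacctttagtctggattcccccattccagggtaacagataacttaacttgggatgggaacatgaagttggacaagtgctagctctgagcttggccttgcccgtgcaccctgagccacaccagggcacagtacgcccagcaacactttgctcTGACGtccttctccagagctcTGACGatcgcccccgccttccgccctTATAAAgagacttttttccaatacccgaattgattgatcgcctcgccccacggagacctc
Chat and Slc18a3 are neighbours in the strict sense: their starts are 602 bases apart, and the whole of Slc18a3 lies within the span of Chat, on the same strand. TGACG was found 174 bases before the start of Chat and at 57 and 36 bases before that of Slc5a7, where TATAAA stood 10 bases before the start; neither motif was found in the Slc18a3 window. Searched on both strands, TGACG was present in the windows of 5 of the 10 genes (Chat, Slc5a7, Ache, Chrm1 and Chrm3), against 21.2% of all 33469 promoters of this length, and TATAAA in that of 1, against 14.2%. GGGCGG, the GC box, was present in 8 of 10, against 33.1%, and TAATTA, a homeodomain core, in 0 of 10, against 5.36%. A match describes the letters of the window and is not a measured site.

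Values are the authors' deposited signal, a linear brightness scaled per array so that its 2% trimmed mean was 100.03 on all 12 arrays; the median signal was 26.8 to 33.1. Signals of different probe sets are not compared. The dissections were checked against markers: 9 of 9 measured genes of striatal projection neurons were higher in the accumbens, with a summed signal of 9868 to 12750 there and 1029 to 1225 in the cortex, and 7 of 7 of cortical glutamatergic neurons were lower, with sums of 221 to 657 and 2634 to 3064. Of 6 markers of neighbouring regions (septum, pallidum and diencephalon), 3 were higher (Nts, Calcr and Ecel1) and 2 lower (Slc17a6 and Trpc4) in the accumbens. The list sums were 386 to 587 there and 113 to 158 in the cortex. Nts, with a mean of 264, was the largest part of the accumbens sums. Carry-over of tissue from those regions was not tested. The arrays had been washed in 3 sets of 4: the vehicle cortex arrays with the first TsA cortex array, the other TsA cortex arrays with accumbens vehicle arrays 1 and 2, and accumbens vehicle array 3 with the TsA accumbens arrays. Differences were therefore also computed with the wash set as a block, and the structure difference within the second set, the one that holds both structures. That set holds accumbens arrays with vehicle and cortex arrays with TsA, so structure and treatment cannot be told apart within it.

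The genes of acetylcholine synthesis and transport were all higher in the accumbens than in the cortex, and their groups of 6 arrays did not overlap. Chat, choline acetyltransferase, had signals of 5.49, 9.75 and 7.10 on the vehicle cortex arrays, 6.79, 10.3 and 5.14 on the TsA cortex arrays, 39.1, 45.2 and 34.1 on the vehicle accumbens arrays and 35.1, 45.2 and 32.4 on the TsA accumbens arrays. The lowest accumbens array was thus well above the highest cortex array, whichever treatment it had received. The mean was 7.42 ± 2.14 in the cortex and 38.5 ± 5.63 in the accumbens (SD, n = 6 each), a ratio of 5.19. On the log2(signal + 16) scale used for every test, which understates the change of dim genes, Chat was higher by 1.22 ± 0.09 (SE), with an adjusted p of 2.203e-07 from limma across all probe sets. The difference was 1.24 on the vehicle arrays and 1.19 on the TsA arrays, and 1.30 within the second wash set. In whole tissue as here, fewer cells of a type and less RNA per cell cannot be told apart.

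Slc5a7, the high-affinity choline transporter that recovers choline into the nerve ending, had signals of 17.5, 5.44 and 8.94 on the vehicle cortex arrays, 20.1, 13.2 and 11.8 on the TsA cortex arrays, 112, 90.2 and 38.8 on the vehicle accumbens arrays and 80.2, 86.1 and 76.9 on the TsA accumbens arrays. All accumbens arrays were above all cortex arrays, but the third vehicle accumbens array lay far below the other five. The means were 12.8 ± 5.40 and 80.7 ± 24.0 (SD, n = 6 each), a ratio of 6.29. The log2 difference was 1.72 ± 0.18 (SE; limma, adjusted p = 4.459e-06, or 1.155e-05 with no limit on signal). It was 1.60 to 1.90 with any 1 array left out, 2.68 with the wash set as a block and 2.03 within the second wash set. The block takes the TsA difference in the accumbens from the third vehicle array alone (0.82). It takes that in the cortex from the first TsA array alone (0.47), and both enter the 2.68. The third vehicle accumbens array also had the lowest summed signal of cholinergic neuron markers in the accumbens (133, against 184 to 220 on the others). That list holds Slc5a7 itself. Of its other genes, Chat (34.1) was not at its lowest of the 6 on this array, and Slc18a3 (19.6) was at its highest among the vehicle accumbens arrays. The sum of the striatal projection neuron markers on this array was the lowest too (9868), but the first vehicle accumbens array, with the highest Slc5a7 signal, had the next lowest (10170). On the third array the sums of microglia markers (694) and endothelial markers (568) were the highest of the 6. The part of these cell types in the low Slc5a7 signal was not tested.

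Slc18a3, the vesicular acetylcholine transporter nested in the Chat gene, was dim: its mean over all arrays was below the limit of 17.4 under which the lowest 40% of probe sets were set aside, so its values come from the same model fitted to all 31042 probe sets. Its signals were 2.36, 7.80 and 7.76 on the vehicle cortex arrays, 8.94, 4.36 and 6.65 on the TsA cortex arrays, 17.4, 19.4 and 19.6 on the vehicle accumbens arrays and 24.0, 19.9 and 29.0 on the TsA accumbens arrays. Again no cortex array reached an accumbens array. The means were 6.31 ± 2.48 and 21.6 ± 4.25 (SD, n = 6 each), a ratio of 3.41, and the log2 difference was 0.75 ± 0.09 (SE; limma, adjusted p = 3.179e-05). The difference was 0.67 on the vehicle arrays and 0.83 on the TsA arrays; with the wash set as a block both missed the threshold (0.87, adjusted p = 0.06056, and 0.85, adjusted p = 0.06653), while their average held (0.86, adjusted p = 0.02304).

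All 3 genes separated the structures, and that difference makes up most of their correlations. Over the 12 arrays Pearson's r was 0.93 between Chat and Slc5a7, 0.89 between Chat and Slc18a3 and 0.85 between Slc5a7 and Slc18a3. With each structure centred on its own mean these values were 0.14, -0.25 and -0.20. That of Chat and Slc5a7 pools 0.50 over the 6 accumbens arrays and -0.47 over the 6 cortex arrays. In the same order, that of Chat and Slc18a3 pools -0.62 and 0.13, and that of Slc5a7 and Slc18a3 pools -0.12 and -0.32. They are given as a description, since the arrays of a structure share its cell make-up.

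**Figure D1:**
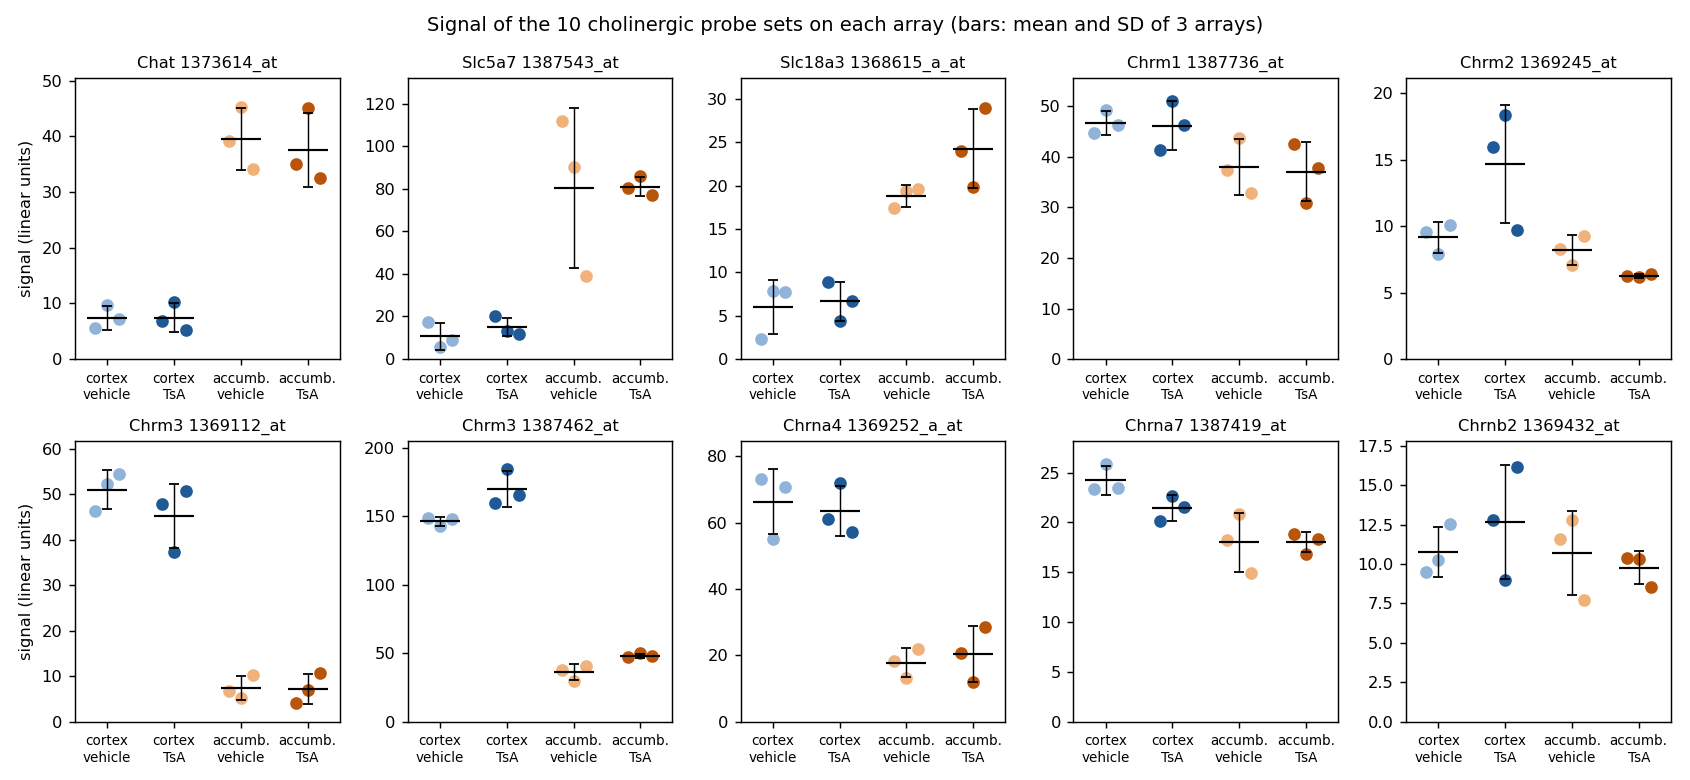
Deposited signal (linear units) of each of the 10 cholinergic probe sets on the 12 arrays, by group; points are arrays in the order of their replicate numbers, lines are group means and bars the SD of 3 arrays. Chat, Slc5a7 and Slc18a3 are high on all 6 accumbens arrays, and both Chrm3 probe sets and Chrna4 on all 6 cortex arrays.

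Of the muscarinic receptors among the members, Chrm3 differed most. Chrm3, the M3 receptor, which activates phospholipase C through Gq, was read by 2 probe sets, and both were lower in the accumbens. Probe set 1387462_at had signals of 148.9, 142.8 and 147.8 on the vehicle cortex arrays, 159.6, 184.3 and 165.6 on the TsA cortex arrays, 37.9, 29.5 and 40.8 on the vehicle accumbens arrays and 47.2, 49.8 and 47.7 on the TsA accumbens arrays. Every cortex array was above every accumbens array, with means of 158 ± 15.3 and 42.1 ± 7.68 (SD, n = 6 each) and a cortex to accumbens ratio of 3.75. The log2 difference was -1.59 ± 0.07 (SE; limma, adjusted p = 2.568e-09). It was -1.80 with the wash set as a block and -1.95 within the second wash set, which sets vehicle accumbens against TsA cortex arrays, and the TsA arrays were the higher ones in the cortex.

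Probe set 1369112_at of Chrm3 had signals of 46.2, 52.1 and 54.5 on the vehicle cortex arrays, 47.8, 37.3 and 50.6 on the TsA cortex arrays, 6.84, 5.15 and 10.2 on the vehicle accumbens arrays and 4.12, 6.96 and 10.7 on the TsA accumbens arrays. The structures were again apart on every array, with a cortex to accumbens ratio of 6.57. On the log2 scale the difference was -1.46 ± 0.09 (SE; limma, adjusted p = 5.046e-08, or 1.632e-07 with no limit on signal). The 2 probe sets of Chrm3 gave the same direction, and over the 12 arrays their r was 0.96, while with each structure centred it was -0.11. That value pools 0.26 over the 6 accumbens arrays and -0.80 over the 6 cortex arrays, where the 2 probe sets ran opposite to each other.

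Chrm1, the M1 receptor, also Gq-coupled and a major postsynaptic receptor of the forebrain, had signals of 44.7, 49.3 and 46.3 on the vehicle cortex arrays, 41.3, 51.0 and 46.3 on the TsA cortex arrays, 37.3, 43.8 and 32.8 on the vehicle accumbens arrays and 42.6, 31.0 and 37.8 on the TsA accumbens arrays. The structures overlapped, with means of 46.5 ± 3.43 and 37.5 ± 5.11 (SD, n = 6 each). The log2 difference was -0.23 ± 0.08 (SE), past the threshold in limma (adjusted p = 0.03875) but not in 11 of the 21 alternatives, among them 8 of the 12 fits with 1 array left out and the fit with the wash set as a block, which gave -0.20 ± 0.18 (adjusted p = 0.4452).

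Chrm2, the Gi-coupled M2 receptor that serves as an autoreceptor on many cholinergic endings, was dim, with a mean over all arrays below the limit. Its signals were 9.53, 7.86 and 10.1 on the vehicle cortex arrays, 15.98, 18.3 and 9.71 on the TsA cortex arrays, 8.30, 7.07 and 9.26 on the vehicle accumbens arrays and 6.21, 6.14 and 6.40 on the TsA accumbens arrays. Cortex and accumbens overlapped on the vehicle arrays and were apart on the TsA arrays, where 2 of the 3 cortex signals were above, and all 3 accumbens signals below, every signal of their structure's vehicle arrays. In the fit to all probe sets the average structure difference was -0.25 ± 0.07 (SE; limma, adjusted p = 0.01867). It was -0.06 on the vehicle arrays and -0.45 on the TsA arrays, where the adjusted p was 0.008512. With the wash set as a block the average was -0.25 ± 0.17 (SE; adjusted p = 0.4095) and the value on the TsA arrays was -0.51 ± 0.21 (adjusted p = 0.177), so the calls were lost with a larger SE at about the same size.

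Among the nicotinic subunits, Chrna4, which with Chrnb2 forms the high-affinity nicotine receptor of the brain, was lower in the accumbens. Its signals were 73.1, 55.2 and 70.7 on the vehicle cortex arrays, 61.3, 72.1 and 57.3 on the TsA cortex arrays, 18.3, 13.2 and 21.9 on the vehicle accumbens arrays and 20.8, 11.9 and 28.6 on the TsA accumbens arrays. No accumbens array reached the lowest cortex array. The cortex to accumbens ratio was 3.40, and the log2 difference was -1.22 ± 0.12 (SE; limma, adjusted p = 2.126e-06), or -1.35 within the second wash set.

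Chrnb2, the partner subunit, was dim and gave no such difference. Its signals were 9.48, 10.2 and 12.5 on the vehicle cortex arrays, 12.8, 8.97 and 16.2 on the TsA cortex arrays, 11.6, 12.8 and 7.71 on the vehicle accumbens arrays and 10.4, 10.3 and 8.54 on the TsA accumbens arrays, and all 4 groups overlapped. The log2 difference was -0.08, with a 95% interval of -0.25 to 0.09 (limma, adjusted p = 0.5204 over all probe sets). The added constant of 16 is above nearly all of its signals and compresses its differences.

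Chrna7, the subunit that forms calcium-permeable receptors of 1 subunit type, had signals of 23.3, 25.8 and 23.4 on the vehicle cortex arrays, 20.1, 22.7 and 21.5 on the TsA cortex arrays, 18.2, 20.8 and 14.9 on the vehicle accumbens arrays and 18.8, 16.9 and 18.4 on the TsA accumbens arrays. The highest accumbens array stood just above the lowest cortex array. The log2 difference of -0.19 ± 0.07 (SE) passed the threshold in limma (adjusted p = 0.03823), but not in 15 of the 21 alternatives, which include 11 of the 12 fits with 1 array left out and the wash set as a block, which gave -0.11 ± 0.15 (adjusted p = 0.6452).

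**Figure D2:**
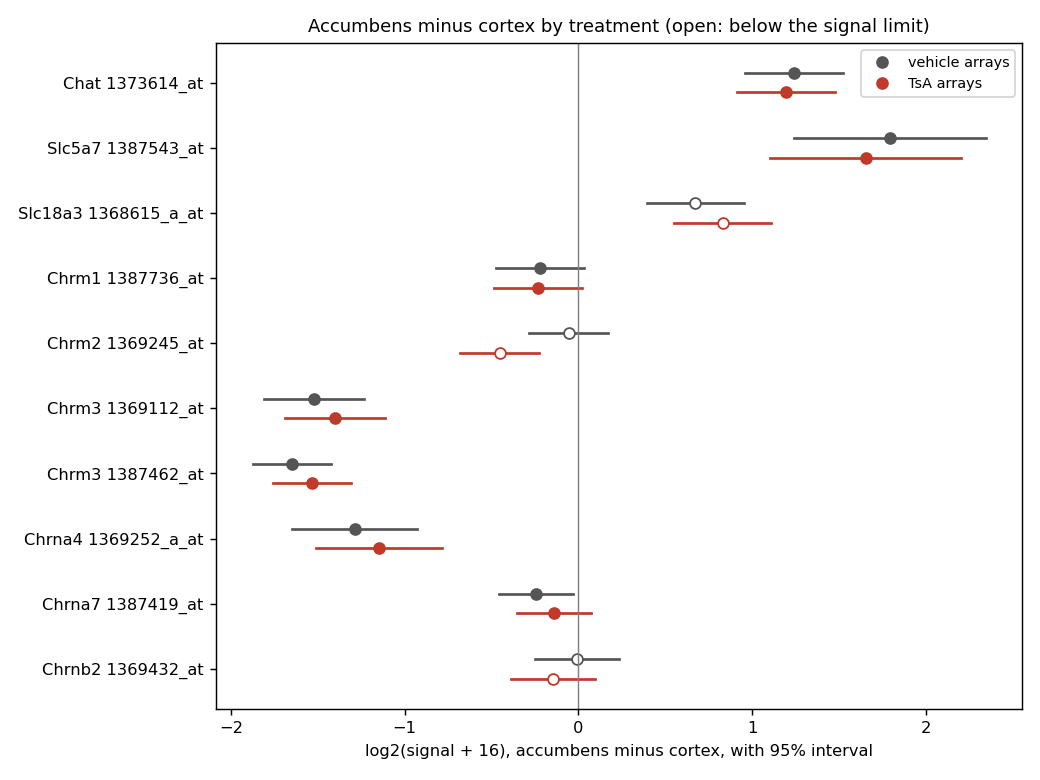
Accumbens minus cortex on the log2(signal + 16) scale for each cholinergic probe set, with 95% intervals, from the 6 vehicle arrays (grey) and the 6 TsA arrays (red) in 1 limma fit; open points are dim probe sets taken from the fit to all probe sets. Chat, Slc5a7 and Slc18a3 lie to the right of 0 and Chrm3 and Chrna4 to the left under both treatments.

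In all, 7 of the 10 probe sets passed the limit on dim signal, which reads the mean over all 12 arrays, and 2 were higher and 5 lower in the accumbens at the threshold, while 44.8% of the 18625 probe sets tested passed it (24.4% higher and 20.4% lower). Chat, Slc5a7 and 1 Chrm3 probe set passed that limit through the structure in which they are bright, so the counts and ranks over these 7 are a description and carry no weight as support. With no limit on signal, 3 of the 10 were higher and 4 lower, where 31% of 31042 passed. The groups of 6 arrays did not overlap for 5 of the 7 probe sets, where 27.1% of all tested had no overlap (14.4% higher and 12.7% lower). On the vehicle arrays alone and on the TsA arrays alone, Chat, Slc5a7, both Chrm3 probe sets and Chrna4 passed, 5 of 7 each time, where 34.5% and 28.3% of all probe sets passed. A difference at least as large in size as that of Slc5a7 was found for 1.48% of all probe sets tested, as those of the 2 Chrm3 probe sets for 1.82% and 2.38%, and as those of Chrna4 and Chat for 3.91% and 3.92%. By contrast, 48.7% of all probe sets differed by at least as much as Chrm1 and 55.0% by at least as much as Chrna7. The directions of the 10 probe sets in this comparison were the same with quantile-normalised and with median-centred arrays, although the share of higher among all calls fell from 54.5% to 47.6% and 37.5%.

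**Figure D3:**
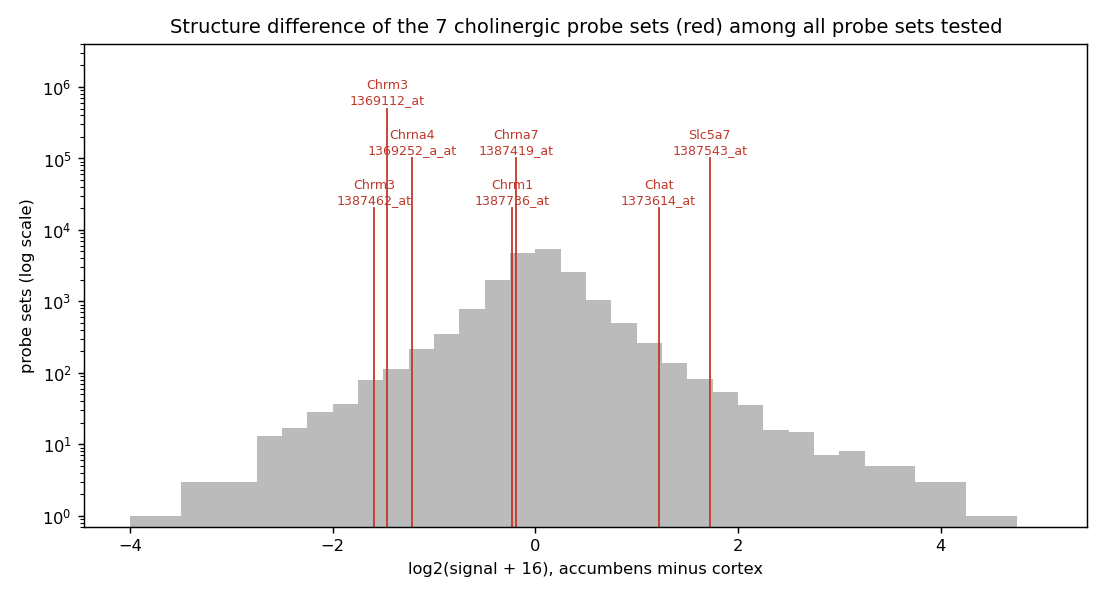
Number of probe sets (log axis) in bins of the accumbens minus cortex difference on the log2(signal + 16) scale, for the 18625 tested; red lines mark the 7 cholinergic probe sets among them. Slc5a7 and Chat lie in the right flank, Chrm3 and Chrna4 in the left, and Chrm1 and Chrna7 near the centre.

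TsA treatment, the comparison the study was built on, changed none of the cholinergic probe sets at the threshold in either structure, and the same held for the whole table: 0 of 18625 passed in the cortex (0%), in the accumbens (0%) and for the difference between the 2 effects (0%). At an unadjusted p under 0.05, limma gave 851, 408 and 662 probe sets. The median size of the TsA difference was 0.10 in the cortex for the 7 tested cholinergic probe sets, where it was 0.11 for all; in the accumbens these values were 0.05 and 0.08. For Chat the TsA minus vehicle difference was -0.01 in the cortex, with a 95% interval of -0.29 to 0.28, and -0.05 in the accumbens, with an interval of -0.34 to 0.23.

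Among the members, probe set 1387462_at of Chrm3 was the one whose TsA arrays lay wholly above the vehicle arrays in both structures. The ratio of TsA to vehicle means was 1.16 in the cortex and 1.34 in the accumbens. On the log2 scale the difference was 0.19 in the cortex (95% interval -0.03 to 0.42; unadjusted p = 0.08881, adjusted p = 0.7515, limma) and 0.31 in the accumbens (0.08 to 0.53; unadjusted p = 0.01094, adjusted p = 0.9999, limma), so neither passed. Of all 18625 probe sets, 3.89% had TsA arrays wholly above vehicle arrays in the cortex, 3.01% in the accumbens and 0.134% in both. The probe set is named here for this pattern, so that share carries no weight as support. With the wash set as a block the accumbens value was 0.18 and the cortex value 0.11. The block leaves only the third vehicle array to compare with in the accumbens and only the first TsA array in the cortex. Without the block, the second Chrm3 probe set gave -0.13 in the cortex and -0.01 in the accumbens.

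Slc18a3 on the TsA accumbens arrays was wholly above the vehicle arrays, with a ratio of 1.29, but the log2 difference of 0.21 (95% interval -0.07 to 0.48) did not pass (limma, adjusted p = 0.9999). The summed signal of the neighbouring-region markers was wholly higher on these TsA arrays too (471 to 587, against 386 to 453 with vehicle). Most of that rise was in Nts, with means of 216.3 with vehicle and 311.0 with TsA. The other markers of the list were higher with TsA too, except Calcr, which went from 76.8 to 72.3. On the log2 scale Ecel1 was higher by 0.165, Slc17a6 by 0.167 and Trpc4 by 0.182. The dim Zic1 was higher by 0.283 in the fit to all probe sets. None of these differences passed the threshold. The part of these markers in the Slc18a3 difference was not tested. Slc5a7 differed by 0.10 in the accumbens (interval -0.45 to 0.65), a value that turned to -0.27 without the third vehicle array and to 0.82 with the wash set as a block, which compares the TsA arrays with that array alone. In the cortex Slc5a7 differed by 0.24 (interval -0.31 to 0.79). For Chrm2 TsA gave 0.28 in the cortex (unadjusted p = 0.02045, adjusted p = 0.8585, limma) and -0.12 in the accumbens, where the 3 TsA arrays lay wholly below the vehicle arrays. The test of the difference between these 2 effects gave -0.40 (unadjusted p = 0.01889, adjusted p = 0.9076, limma). The TsA cortex arrays of Chrna7 lay wholly below the vehicle arrays, at -0.10. Among the 7 probe sets past the signal limit, the treatment groups did not overlap for 2 in the cortex and 1 in the accumbens, against 12.4% and 5.48% of all tested: in the cortex 1 was higher (3.89% of all) and 1 lower (8.47%), and in the accumbens 1 was higher (3.01%) and 0 lower (2.46%). The remaining TsA differences, those of Chrm1, Chrna4 and Chrnb2 in both structures and of Chrna7 in the accumbens, were between -0.05 and 0.09.

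**Figure D4:**
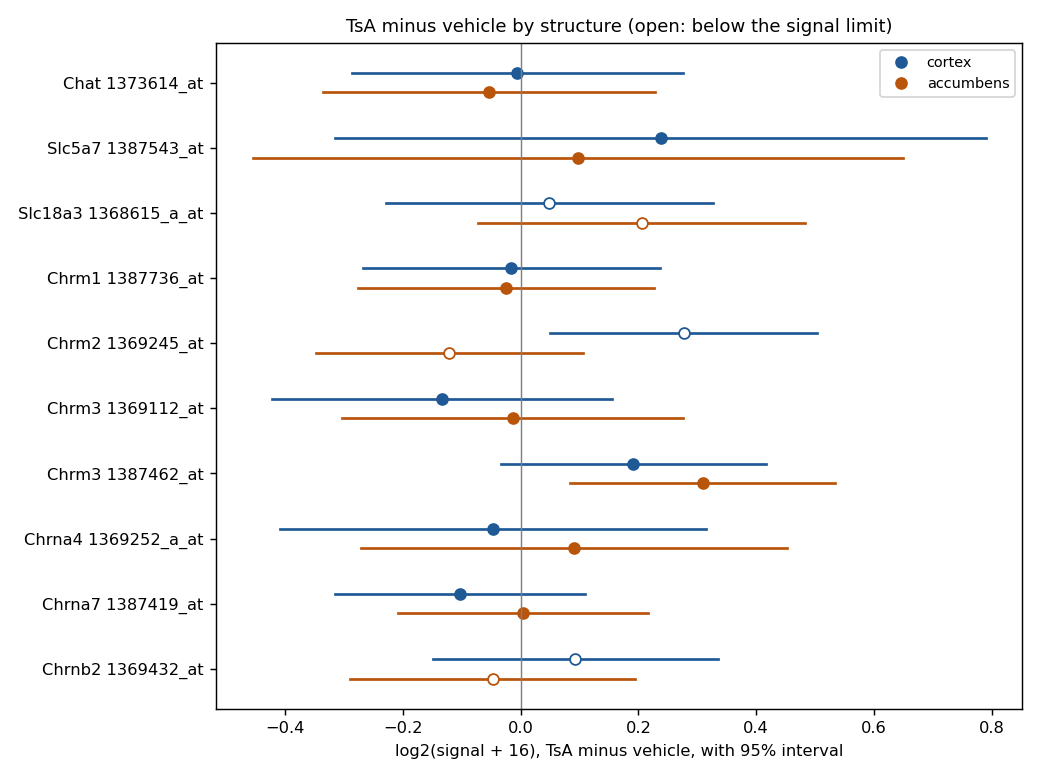
TsA minus vehicle on the log2(signal + 16) scale for each cholinergic probe set, with 95% intervals, in the cortex (blue) and the accumbens (orange); open points are dim probe sets from the fit to all probe sets. All intervals cross 0 except those of Chrm3 1387462_at in the accumbens and Chrm2 in the cortex, and neither passed after adjustment.

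Other genes of cholinergic transmission were followed in 7 lists of 63 symbols, 52 of which were on the array and 29 past the signal limit. Of these 29, 5 were higher and 7 lower in the accumbens and 17 did not pass, or 41.4% called, close to the 44.8% of all probe sets. Isl1 and Nkx2-1 passed the signal limit only through the accumbens and Gna14 only through the cortex. Counts that hold these genes are a description and carry no weight as support. Chrm4, the Gi-coupled M4 receptor of striatal projection neurons, was higher by 0.36 ± 0.11 (SE; limma, adjusted p = 0.01403), with a mean signal of 61.2 ± 9.25 in the cortex and 83.0 ± 12.1 in the accumbens (SD, n = 6 each). Chrm5, the Gq-coupled M5 receptor, was dim, with means of 8.37 and 14.1, and its difference of 0.31 in the fit to all probe sets did not pass (limma, adjusted p = 0.0652). The 13 other nicotinic subunits were all dim. In the fit to all probe sets Chrna5, an accessory subunit, fell (-0.57 ± 0.13; limma, adjusted p = 0.00511) from a mean of 22.5 to 9.84, while no other of the 13 passed. Of all 31042 probe sets 31% passed in that fit. Bche, butyrylcholinesterase, and Colq, the collagen tail that anchors acetylcholinesterase, were dim as well and higher by 0.38 and 0.24 in that fit (limma, adjusted p = 0.02113 and 0.04021).

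Of 4 tested genes that help nicotinic receptors to the surface or tune them, 3 were lower in the accumbens and 0 higher. Of all probe sets 20.4% were lower and 24.4% higher. The cortical glutamatergic markers were lower too (7 of 7), and their part in this count was not tested. Lynx1, a Ly6-type protein that binds nicotinic receptors and damps them, fell by 0.95 on the log2 scale, from a mean signal of 610.6 to 316.0. Tmem35a, the chaperone NACHO needed for receptor assembly, fell by 0.77 on the log2 scale, and Ly6h, another Ly6-type protein, fell by 0.41 on the log2 scale. Ric3, a chaperone studied mostly for Chrna7, differed by -0.21 and did not pass (limma, adjusted p = 0.09735).

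Of 7 tested genes of choline and acetyl-CoA supply 2 were higher and 1 lower, near the shares of all probe sets (24.4% and 20.4%). Slc44a1, a choline transporter found widely and in myelinating cells, rose by 1.81 ± 0.10 (SE), from 123 to 476 in mean signal, and Chka, the choline kinase that leads choline into phospholipid, rose by 0.64 ± 0.10. Markers of oligodendrocytes moved with them: 5 of 5 were higher in the accumbens, with summed signals of 11250 to 14460 against 5227 to 6225 in the cortex, and their part in this result was not tested. Acly, which makes acetyl-CoA from citrate, fell by 0.21 on the log2 scale.

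Of 14 tested genes of muscarinic G protein signalling, 3 were lower and 0 higher. The share of lower calls was near the 20.4% of all probe sets, of which 24.4% were higher. Rgs4, which shortens Gq and Gi signals, fell by 1.55 on the log2 scale, Gna14, a Gq-family subunit, fell by 1.53 on the log2 scale, and Plcb4, a phospholipase C that this family activates, fell by 1.51 on the log2 scale. The cortical glutamatergic markers were lower as well, and their part in these 3 changes was not tested. Prkcb, with the next smallest p, differed by -0.17 and did not pass (limma, adjusted p = 0.06213). Nor did the rest of the list, among them Gnaq, Gna11, Plcb1 and Plcb3.

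Of the genes that specify cholinergic neurons, 5 were on the array and 3 were tested. Isl1, a LIM homeodomain factor of striatal cholinergic and direct pathway neurons, was higher by 1.85 ± 0.09 (SE), with a mean of 1.397 in the cortex and 46.9 in the accumbens, and Nkx2-1, the factor of the ventral forebrain from which these interneurons arise, was higher by 0.96 ± 0.09, with means of 6.66 and 28.2. Gbx2 was dim and higher by 0.45 in the fit to all probe sets. Zic4 differed by -0.16 and did not pass, and Ngfr, the low-affinity neurotrophin receptor of basal forebrain cholinergic neurons, was dim, with means of 2.53 and 3.83. TsA changed 0 of the 29 genes at the threshold in either structure, and at an unadjusted p under 0.05 limma gave 4 in the cortex (Chkb, Gna14, Plcb1 and Plcb4) and 0 in the accumbens.

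**Figure D5:**
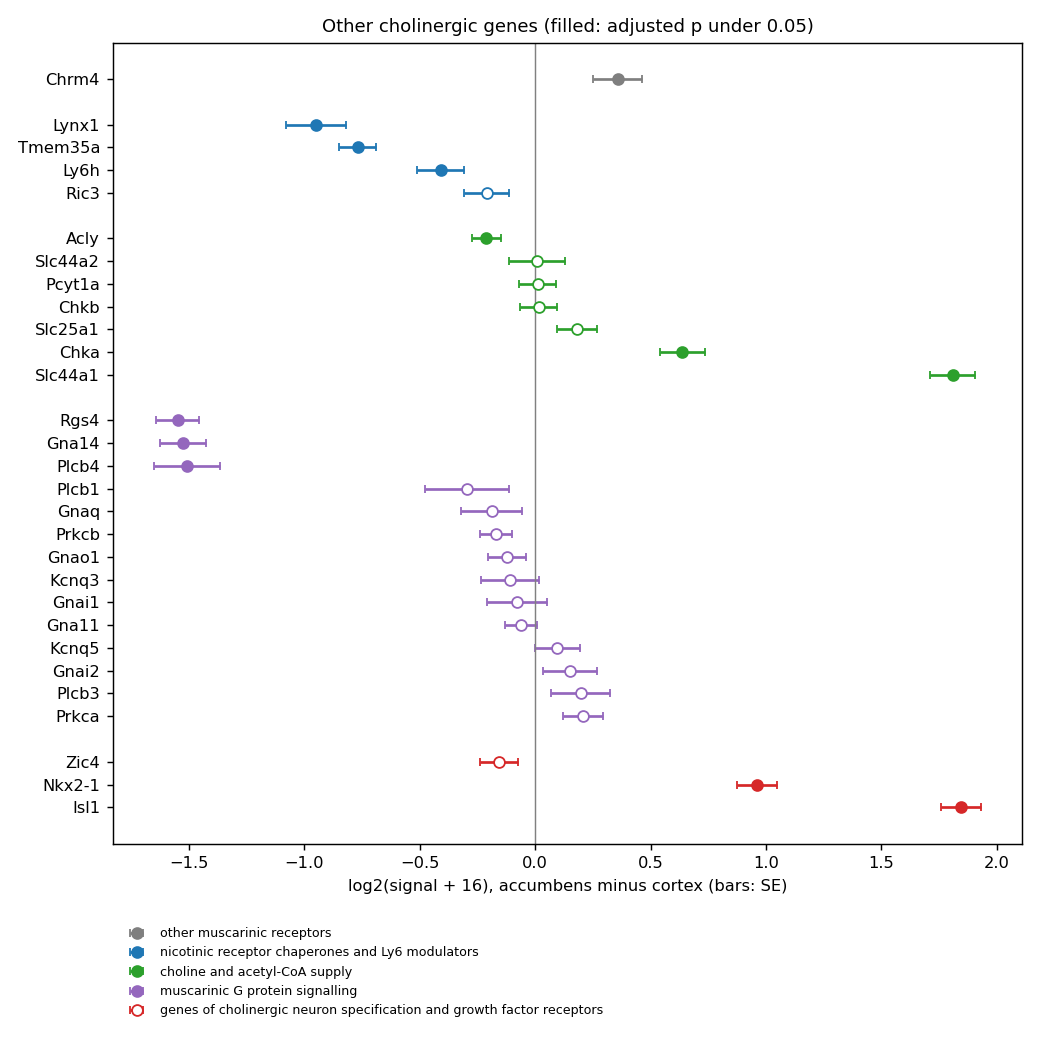
Accumbens minus cortex on the log2(signal + 16) scale, with SE, for the 29 other cholinergic genes past the signal limit, by list; filled points passed an adjusted p of 0.05 in limma. Slc44a1, Isl1, Nkx2-1, Chka and Chrm4 are filled on the right, and Rgs4, Gna14, Plcb4, Lynx1, Tmem35a, Ly6h and Acly on the left.

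The genes whose pattern over the 12 arrays was most like that of the leading members are given by Pearson's r of log2(signal + 16), which the structure difference dominates. For Chat they were Rab40b (r = 0.992), Neu2, Prkch, Rasgrp2 and Dclk3 (r = 0.989). For Slc5a7 they were Trim59 (r = 0.991), Sgk3, Tomm70, Kcna4 and Klhl13, and with each structure centred the r of these 5 was still 0.89 to 0.93, above the 0.14 between Slc5a7 and Chat. The third vehicle accumbens array, with a Slc5a7 signal of 38.8 far below the other accumbens arrays, weighs heavily in these centred values. Values without that array are not given. For Chrm3, by probe set 1387462_at, they were Olr59 (r = 0.991), Efna5, Zmat4, Neurod1 and Zbtb18, with centred values of 0.62 to 0.80. The 5 nearest to each gene were picked as the highest of all, so the centred values are in part chosen as well.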

How the data were processed

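RNA was hybridised to 12 Affymetrix rat expression arrays, 3 per group, each a pool of 2 rats per the labels. The intensity values are the linear signal deposited by the authors, made with GCOS 1.4 and MAS5 per the submitters' processing notes; they were not normalised further, and per-probe values and detection calls were not used. Of 31099 probe sets 57 controls were left out; of the other 31042, 20826 had 1 gene symbol, 436 several and 9780 none in the annotation used.

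Values were analysed as log2(signal + 16). The lowest 40% of probe sets by mean signal (17.4 or less) were left out, keeping 18625. One limma model (version 3.58.1, R 4.3.3; lmFit, contrasts.fit, eBayes with trend) with 4 group means gave all comparisons, two-sided, with Benjamini-Hochberg adjustment over all probe sets kept and a threshold of 0.05. The 3 dim members come from the same model without the limit on signal. Wash sets were read from the run records. The model was tested on simulated data. Named genes were all members, for each further list up to 4 genes with the smallest p between structures (further names are given as counts of 5 or fewer), and the 5 genes most alike in pattern. The alternatives were 2 other added constants, no limit and a stricter limit on signal, quantile normalisation, median centring, no trend, wash set as a block or within a set, each array left out, and the replicate number as a block. The number of arrays limits the precision; p-values measure the spread between pools. The members and lists were chosen with earlier results of these data known. Ache and gene products other than mRNA were not analysed here. Sequences are from RefSeq (GRCr8), with promoters for all 10 genes.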

Additional observations from a re-analysis of the deposited data

How the results depend on the processing

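Over the 60 differences of the 10 cholinergic probe sets there were 1198 values under 24 alternative settings; 1106 kept direction and side of the threshold, 32 lost a call, 3 gained one, 57 changed sign without being called either way, and 0 reversed a call. The structure calls of Chat, Slc5a7, both Chrm3 probe sets, Chrna4 and Slc18a3, averaged over treatments, held under every alternative that could give a value; their size depended on the constant added before the log (Chat 2.26 with 1 and 0.52 with 64, Slc18a3 1.69 and 0.28). Calls lost were those of Chrm1 (11), Chrna7 (15), Chrm2 (4) and Slc18a3 within 1 treatment (2). Chrna7 gained a call on the vehicle arrays with quantile normalisation and median centring, and Chrm1 with the latter. The cause was not tested.

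The number of all probe sets past the threshold between structures, 8349, was 4199 with the wash set as a block and 4231 within the second wash set, which holds 4 arrays; it was 2771 in place of 6434 on the vehicle arrays and 2633 in place of 5265 on the TsA arrays with the block. Within the third wash set, 6 probe sets passed for TsA in the accumbens, and none was a cholinergic one. Leaving out the lowest 60% by signal kept 1 cholinergic probe set, so that 1 passed in place of 7, 5 and 5. With 1 array left out, 7509 to 9048 probe sets passed between structures, 5004 to 7780 on the vehicle arrays and 4013 to 5891 on the TsA arrays, with 5 to 7, 5 and 5 cholinergic ones, and 0 for TsA in either structure or for the difference between its effects.

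Some arrays with the same replicate number deviated together and others did not (correlations of deviations from group means -0.11 to 0.66), so the numbers were not taken to pair the samples. With the replicate number as a block, 8707 probe sets passed between structures, 6 of them cholinergic, and 0 for TsA; the adjusted p of Chrna7 was 0.05302 and of Chrm2 0.06579. The dim Slc18a3, Chrm2 and Chrnb2 limit what can be read from their signals.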
